A study of Mus musculus with 8 samples.

Results

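The genes described here encode proteins that move iodide, chloride, bicarbonate or potassium across the membranes of gastric epithelial cells. They are Slc5a5, Slc26a4, Slc26a6, Slc26a9, Cftr, Ano1, Kcnq1, Kcne2, Kcne3 and Kcnj16, chosen by symbol, and all 10 were found among the 25902 named entries of the count table. Bulk RNA of EpCAM+ cells, sorted from antral gastric tumors, was sequenced from 4 Gp130FF; Yap1WT and 4 Gp130FF; Yap1KO mice of 18 wk by the labels, with 1 library for each mouse (the study's text also gives a slightly older age). All mice carry the gp130 mutation that leads to gastric tumors, and by the study's methods both groups also carry the floxed Yap1 gene and the Tff1:CreERT2 transgene. Cre, active where the Tff1 promoter is (the mucus cells of the gastric surface and other tumor epithelial cells), removes exon 3 of Yap1 once tamoxifen is given, so counts over the whole Yap1 gene need not reach 0. The labels give a time of 3 days from tamoxifen for every mouse, whereas the methods describe vehicle in place of tamoxifen for Yap1WT, so that loss of Yap1 and exposure to tamoxifen may not be separable between the groups.

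In iodide-concentrating tissues such as thyroid, salivary gland and stomach, the sodium-iodide symporter takes iodide up from the blood side together with sodium, and gastric mucus cells then release it into the gastric juice. Chloride leaves epithelial cells at the lumen through channels such as CFTR and anoctamin 1, while SLC26 exchangers trade it against bicarbonate, which helps to protect the surface from acid. Potassium channels keep the membrane voltage that drives this secretion, and in acid-secreting parietal cells they return potassium to the lumen for the proton pump.

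Counts were scaled with TMM factors to CPM (counts scaled to library size), and edgeR's quasi-likelihood test was run over 13495 genes, those above 0.5 CPM in 6 or more libraries. A gene was called at a Benjamini-Hochberg adjusted p under 0.05, and a log2 difference is the fitted log2 fold change, positive where Yap1KO is higher. Yap1WT libraries held 27607755 to 77483047 counts each and Yap1KO libraries 18229945 to 74278015. Yap1 had 64.2 to 78.0 CPM in Yap1WT against 21.3 to 29.7 CPM in Yap1KO, so each library matched its label. Yap1KO replicate 4, the shallowest library, stood apart on the first principal component (66.8, against -6.37 to 1.34 for the other Yap1KO libraries). Of the transport genes, 8 passed the filter and Kcne2 and Kcnj16 did not. Slc5a5 was lower and Slc26a9 higher in Yap1KO, and the other 6 were not called. Of all genes tested, 3.53% were called higher and 2.34% lower (5.87% in either direction). At an unadjusted p under 0.05 the count was 5 of 8, against 20.4% of all genes. The transport genes were chosen with earlier results of these data known, so these shares cannot be read as a result for the set. The median log2 difference was 0.06 over the 8 transport genes and -0.01 over all genes tested.

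**Figure D1:**
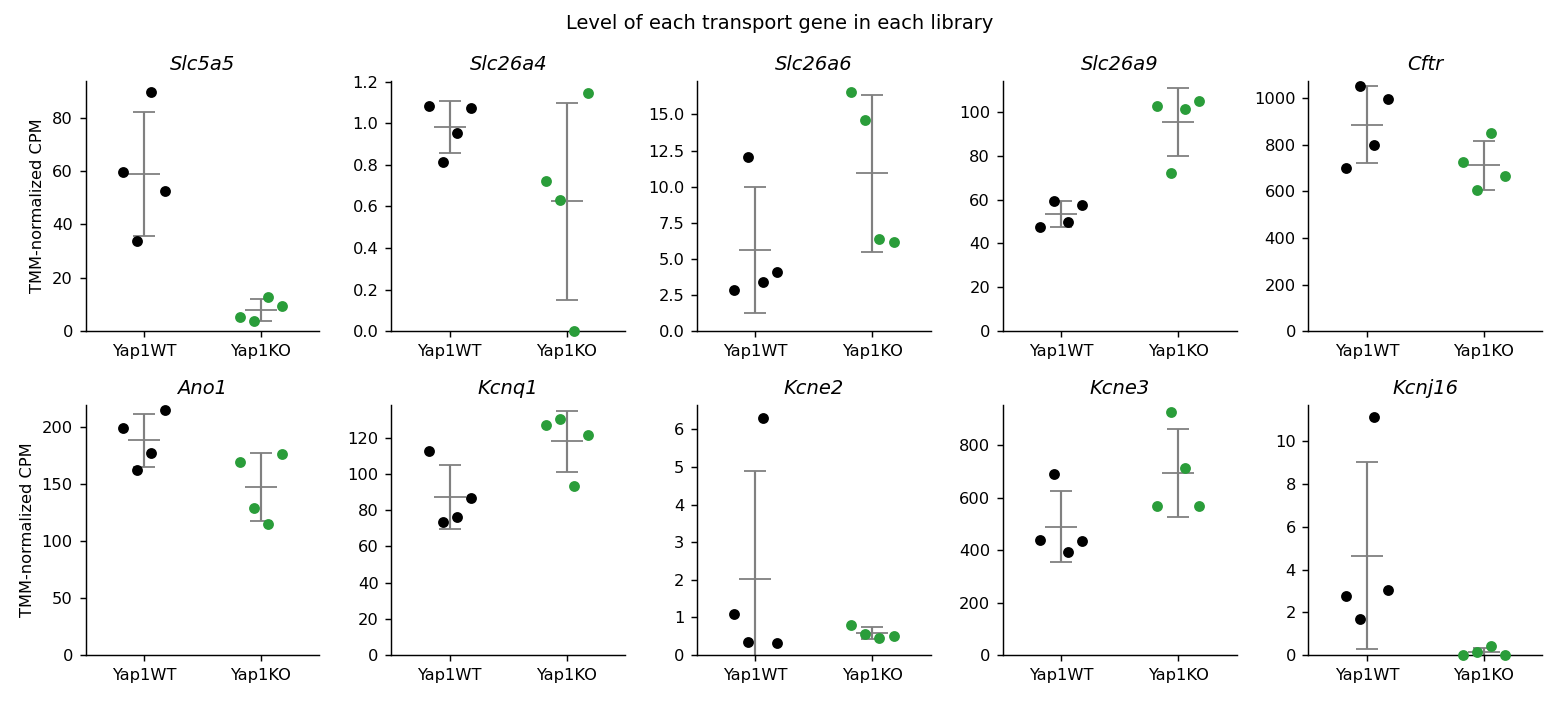
TMM-normalized CPM (y axis, from 0) of each transport gene in the 4 Yap1WT (black points) and 4 Yap1KO libraries (green points), group means and SDs being in grey. The lower SD bar of Kcne2 in Yap1WT runs below 0 and is cut off there. The groups do not overlap for Slc5a5 (33.8 to 89.5 against 3.79 to 12.9 CPM), Slc26a9 and Kcnj16.

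Slc5a5, on chromosome 8 of GRCm38 (chr8:70882885-70892785), encodes the sodium-iodide symporter, the step at which iodide enters the cell. It had 59.7, 33.8, 89.5 and 52.6 CPM in Yap1WT replicates 1 to 4, against 5.42, 3.79, 12.9 and 9.28 CPM in the same order in Yap1KO. The lowest Yap1WT library lay above the highest Yap1KO library, and groups did not overlap for 13.2% of all genes tested, 6.01% in this direction. The mean fell from 58.9 ± 23.1 to 7.85 ± 4.09 CPM (SD, n = 4 each), a 7.48-fold lower level (log2 difference -2.90, SE 0.40, 95% interval -3.80 to -2.01, edgeR adjusted p = 0.0025). In bulk RNA, fewer cells that express a gene and less of its RNA per cell cannot be told apart. The call held in all 16 alternatives, with log2 differences of -3.28 to -2.63, and leaving out each library in turn gave adjusted p-values of 0.00277 to 0.0128. On the deposited log2 scale the difference was -3.05, with an exact permutation p of 0.0286, the smallest that 4 against 4 samples can give.

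The 250 bases before a RefSeq start site of Slc5a5 and of Slc26a9 are shown because these were the transport genes called. They come from RefSeq (GRCm38.p6) and read in the direction of transcription, from chr8:70892758-70893007 on the minus strand for Slc5a5 and from chr1:131743772-131744021 on the plus strand for Slc26a9. The Slc5a5 window reaches into the range given above for that gene, so its start site is not the outermost of the gene.
Slc5a5: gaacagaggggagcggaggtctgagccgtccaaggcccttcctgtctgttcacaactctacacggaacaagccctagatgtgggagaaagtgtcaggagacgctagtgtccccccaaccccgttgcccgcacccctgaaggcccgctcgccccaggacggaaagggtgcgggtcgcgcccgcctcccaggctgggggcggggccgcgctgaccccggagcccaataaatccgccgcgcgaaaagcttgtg
Slc26a9: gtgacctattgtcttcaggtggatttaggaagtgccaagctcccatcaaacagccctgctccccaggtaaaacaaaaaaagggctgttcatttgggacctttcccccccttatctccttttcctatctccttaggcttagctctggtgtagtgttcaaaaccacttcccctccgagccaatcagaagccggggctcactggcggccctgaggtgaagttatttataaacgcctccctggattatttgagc
The core letters bound by TEAD, the DNA-binding partners of YAP1, were searched as GGAATG or, on the other strand, CATTCC, and would have been printed in capitals. Neither window held them. RefSeq start sites were available for 9 of the 10 transport genes (all but Kcnq1), and of their 14 windows 0 held the core, against 12.6% (4153 of 32851) of all promoter windows of 250 bases. This describes these windows alone and says nothing on more distant sites.

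The parietal cell genes Atp4a and Atp4b, which encode both subunits of the gastric proton pump, ranked the Yap1WT libraries as Slc5a5 did, and not every parietal marker tested followed this order. Atp4a had 61.0, 23.5, 150 and 47.1 CPM in Yap1WT replicates 1 to 4, against 5.80, 11.1, 39.3 and 12.8 CPM in the same order in Yap1KO. Atp4b had 23.1, 8.43, 64.8 and 18.6 CPM in Yap1WT against 0.887, 3.03, 11.5 and 3.17 CPM in Yap1KO. The shared order in Yap1WT was replicate 3 highest, then 1, 4 and 2, and all were highest in replicate 3 of Yap1KO. Aqp4, a water channel gene, had 5.11, 3.73, 1.75 and 2.83 CPM in Yap1WT against 3.22, 4.07, 11.3 and 4.42 CPM in Yap1KO, so that it was lowest in Yap1WT replicate 3 (log2 difference 0.78, edgeR adjusted p = 0.391). Unlike Slc5a5, Atp4a overlapped between the groups (log2 difference -2.02, edgeR adjusted p = 0.107) and so did Atp4b (log2 difference -2.61, adjusted p = 0.0863). Of 7 parietal markers 5 were tested and 0 were called by edgeR (2 lower by DESeq2, 0 by limma-voom and 3 before adjustment at p under 0.05), with a median log2 difference of -1.09. Their summed level was 137 to 403 CPM in Yap1WT against 151 to 215 CPM in Yap1KO, and its most abundant gene was Clic6, which encodes a chloride channel-like protein, in every library but Yap1WT replicate 3, where Atp4a lay above it. Clic6 had 92.0 to 146 CPM in Yap1WT, in the order of Slc5a5, against 124 to 165 CPM in Yap1KO, where replicate 4 was highest (log2 difference 0.27, edgeR adjusted p = 0.348). Slc26a7 and Cckbr, also parietal markers, stayed under 1 CPM in every library. A high replicate 3 was not particular to parietal markers. Pgc, a chief cell marker, had 945, 201, 3335 and 1891 CPM in Yap1WT against 566, 412, 1729 and 735 CPM in Yap1KO. Its order in Yap1WT was replicate 3, 4, 1 and 2. In Yap1KO, Pgc ranked the libraries as Slc5a5 did, whereas Atp4a and Atp4b did not. Rab3d, another chief cell marker, was highest in Yap1WT replicate 3 and Yap1KO replicate 4. Of 8 tested genes listed as foveolar (surface mucus cell) markers, 3 were called lower and 1 higher, with a median log2 difference of -0.81. The shares over all genes tested were 2.34% and 3.53%. Those lower were Sult1c2, Capn8 and Anxa10 (log2 differences -1.63, -1.76 and -0.98), and Gkn3 was higher (0.68). The part of parietal, chief or foveolar cells in the difference in Slc5a5 was not tested.

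**Figure D2:**
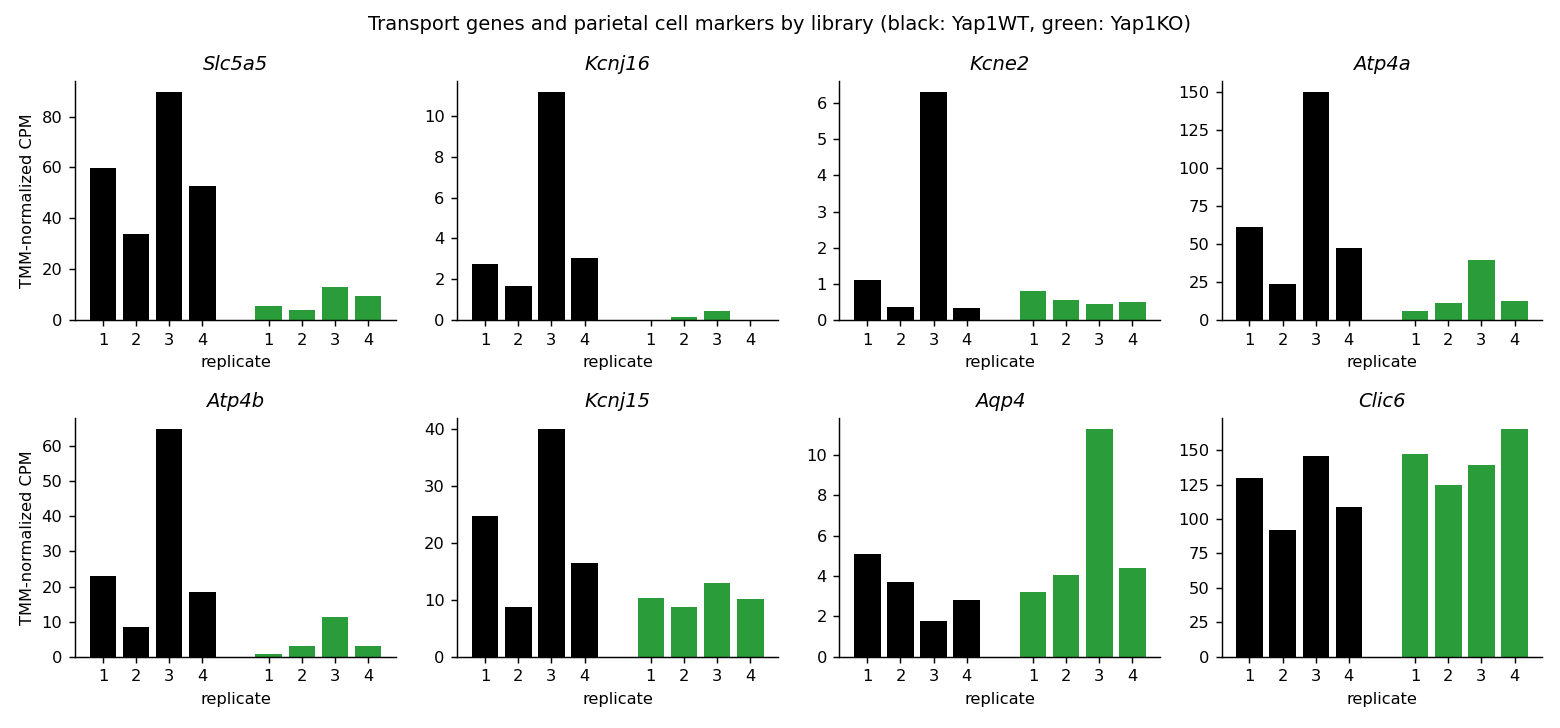
TMM-normalized CPM (y axis, from 0) in each library (x axis, replicates 1 to 4 of Yap1WT in black and of Yap1KO in green) of Slc5a5, Kcnj16 and Kcne2 beside the tested parietal markers Atp4a, Atp4b, Kcnj15, Aqp4 and Clic6. Slc5a5, Kcnj16, Kcne2, Atp4a, Atp4b and Kcnj15 are highest in Yap1WT replicate 3, Aqp4 is highest in Yap1KO replicate 3 and Clic6 in Yap1KO replicate 4, and Slc5a5 and Kcnj16 have no overlap between the groups.

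Of the other genes that handle iodide, 6 of 13 were tested, with 0 called higher (0 also by DESeq2, by limma-voom and before adjustment at p under 0.05) and 1 lower, and a median log2 difference of 0.10. The gene called was Iyd, whose enzyme removes iodide from iodotyrosines so that it can be used again. It had 75.3, 66.3, 74.8 and 55.7 CPM in Yap1WT against 36.1, 50.9, 31.8 and 37.6 CPM in Yap1KO, without overlap (log2 difference -0.80, SE 0.16, edgeR adjusted p = 0.0158). The call was lost when any of Yap1WT replicate 3 and Yap1KO replicates 1 and 4 was left out (adjusted p = 0.0511 to 0.0534). Duox2 and Duoxa2, chosen after their values were seen, encode an oxidase that supplies hydrogen peroxide at the cell surface and its maturation factor. Duox2 had 294 to 457.4 CPM in Yap1WT against 364 to 463 CPM in Yap1KO (log2 difference 0.06, adjusted p = 0.868). Duoxa2 had a log2 difference of 0.14 (adjusted p = 0.754).

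Among the SLC26 exchangers, Slc26a9 on chromosome 1 (chr1:131744022-131771504) encodes a chloride transporter of the gastric surface epithelium. It had 47.5, 59.5, 49.7 and 57.5 CPM in Yap1WT against 103, 72.0, 101 and 105 CPM in Yap1KO. Every Yap1KO library lay above every Yap1WT library, and Yap1KO replicate 2 lay well below the other Yap1KO libraries. Groups did not overlap for 7.19% of all genes tested in this direction. The mean rose from 53.5 ± 5.83 to 95.3 ± 15.6 CPM (SD, n = 4 each), a 1.78-fold higher level (log2 difference 0.83, SE 0.14, 95% interval 0.53 to 1.14, edgeR adjusted p = 0.00619). The call held in all 16 alternatives, at log2 differences of 0.78 to 0.95 and an adjusted p of at most 0.0257.

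Slc26a6, on chromosome 9, encodes an exchanger of chloride for bicarbonate and other anions. It had 2.82, 12.1, 3.42 and 4.12 CPM in Yap1WT against 16.6, 14.6, 6.38 and 6.17 CPM in Yap1KO. A single Yap1WT library, replicate 2, overlapped with Yap1KO, and the Yap1KO libraries fell into a higher and a lower pair. The log2 difference was 0.97 (SE 0.51, 95% interval -0.17 to 2.10, edgeR adjusted p = 0.332). It was 1.67 without Yap1WT replicate 2, where the adjusted p was 0.0555, and 0.69 to 1.67 over all alternatives, none of which called it.

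Slc26a4, on chromosome 12, encodes pendrin, an exchanger of iodide and bicarbonate for chloride. It had 1.08, 0.815, 0.955 and 1.07 CPM in Yap1WT against 0.721, 0.631, 0 and 1.15 CPM in Yap1KO, the 0 being a library without any read, which allows at most 0.0387 CPM. Limits of this kind cover counting error only. Apart from that library the groups overlapped, all close to 1 CPM or below. The log2 difference was -0.72 (SE 0.90, 95% interval -2.72 to 1.29, edgeR adjusted p = 0.722). It was -0.25 without Yap1KO replicate 3 and -2.32 by limma-voom, with no call in either. Of the other SLC26 genes 3 of 8 were tested, with 0 higher in edgeR (0 also by DESeq2, by limma-voom and before adjustment at p under 0.05) and 1 lower and a median log2 difference of -0.14. Slc26a10 fell from 3.36 ± 1.37 to 0.926 ± 0.238 CPM (SD, n = 4 each), with a log2 difference of -1.85 (edgeR adjusted p = 0.0269). That call was lost when any of Yap1WT replicates 1 and 3 and Yap1KO replicates 1, 3 and 4 was left out (adjusted p = 0.0599 to 0.098). Slc26a2, a sulfate transporter gene and the most abundant of these, had 251 to 291 CPM in Yap1WT against 134 to 361 CPM in Yap1KO.

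Cftr, on chromosome 6, encodes the chloride and bicarbonate channel that is mutated in cystic fibrosis. It had 700, 1050, 797 and 995 CPM in Yap1WT against 727, 604, 850 and 668 CPM in Yap1KO. The groups overlapped, with Yap1KO replicates 2 and 4 below each Yap1WT library and Yap1WT replicates 2 and 4 above each Yap1KO library. The log2 difference was -0.31 (SE 0.16, 95% interval -0.67 to 0.04, edgeR adjusted p = 0.305), and -0.41 to -0.22 over the alternatives. Ionocytes are rare airway cells with much Cftr. Of 4 ionocyte markers, Foxi1 stayed at 0 to 0.333 CPM, Ascl3 at 0 to 0.609 CPM and Atp6v1g3 at 0 to 0.189 CPM over the 8 libraries. The other, Atp6v0d2, a subunit of the vacuolar proton pump, was lower (164 to 260 CPM in Yap1WT against 39.6 to 127 CPM in Yap1KO, log2 difference -1.64, edgeR adjusted p = 0.0202). The call of Atp6v0d2 was lost when any of Yap1WT replicate 1 and Yap1KO replicates 1 and 4 was left out (adjusted p = 0.053 to 0.0637). The summed level of the list was 164 to 261 CPM in Yap1WT against 39.8 to 128 CPM in Yap1KO, nearly all of it Atp6v0d2.

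Ano1, on chromosome 7, encodes the calcium-activated chloride channel anoctamin 1. It had 198, 162, 176 and 214 CPM in Yap1WT against 169, 128, 115 and 176 CPM in Yap1KO. Yap1KO replicates 2 and 3 lay below each Yap1WT library, and the other Yap1KO libraries overlapped with Yap1WT. The log2 difference was -0.36 (SE 0.15, 95% interval -0.70 to -0.01, edgeR adjusted p = 0.226). Ano1 is also known from interstitial cells of Cajal, the pacemaker cells of the gut wall. Of 11 markers of these cells and of smooth muscle 9 were tested and 0 called by edgeR (0 higher by DESeq2, 0 by limma-voom and 1 before adjustment at p under 0.05), with a median log2 difference of 0.52, and the list summed to 60.1 to 148 CPM in Yap1WT against 81.3 to 193 CPM in Yap1KO. Kit, a defining marker, had 27.1 to 33.6 CPM in Yap1WT against 32.1 to 44.6 CPM in Yap1KO. The part of such cells in the level of Ano1 was not tested.

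Of the other chloride channel genes 19 of 28 were tested, with 1 higher and 0 lower in edgeR (1 lower by DESeq2, 0 by limma-voom and 1 before adjustment at p under 0.05) and a median log2 difference of 0.05. Ano10, an anoctamin gene, had 35.5 to 47.3 CPM in Yap1WT against 57.0 to 67.7 CPM in Yap1KO (log2 difference 0.57, SE 0.11, edgeR adjusted p = 0.0165). That call was lost without Yap1KO replicate 1 or 4 (adjusted p = 0.0517 and 0.0558).

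Kcnq1, on chromosome 7, encodes the pore of a potassium channel whose partner decides where and when it opens. It had 112, 73.7, 76.1 and 86.7 CPM in Yap1WT against 127, 130, 93.2 and 122 CPM in Yap1KO. Apart from Yap1WT replicate 1, the Yap1WT libraries lay below each Yap1KO library. The log2 difference was 0.43 (SE 0.16, 95% interval 0.09 to 0.78, edgeR adjusted p = 0.146), and 0.36 to 0.58 over the alternatives without a call. Its exons share 121 bases (2.96%) with the antisense Kcnq1ot1, which the counts cannot separate, since the library kit does not mark strand. Kcnq1ot1 itself had 0.776 to 7.85 CPM. The antisense Gm15592 shares 1.66% of the exon bases of Cftr, and the antisense Gm34821 shares 0.506% of those of Kcne3.

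Kcne3, also on chromosome 7, encodes the partner that keeps Kcnq1 open at the blood side of secreting cells. It had 439, 691, 392.4 and 436 CPM in Yap1WT against 567, 926, 712 and 570 CPM in Yap1KO. Yap1WT replicate 2 lay within the range of Yap1KO, and the remaining Yap1WT libraries lay below it. The log2 difference was 0.50 (SE 0.21, 95% interval 0.03 to 0.98, edgeR adjusted p = 0.212).

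Kcne2 encodes the Kcnq1 partner of parietal cells. It had 1.10, 0.349, 6.30 and 0.322 CPM in Yap1WT against 0.795, 0.568, 0.439 and 0.491 CPM in Yap1KO, the lowest resting on 9 counts. Yap1WT replicate 3 stood far above all others, and the rest of the groups overlapped. With the filter set at 4 libraries its log2 difference was -1.82 (edgeR adjusted p = 0.311), and -0.06 without Yap1WT replicate 3.

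Kcnj16, on chromosome 11 (chr11:110968033-111027968), encodes an inward-rectifier potassium channel. It had 213, 72, 771 and 85 counts in Yap1WT and 0, 5, 33 and 0 counts in Yap1KO, or 2.75, 1.68, 11.2 and 3.04 CPM against 0, 0.158, 0.426 and 0 CPM. The groups did not overlap, and the libraries without a read allow at most 0.0555 CPM in Yap1KO replicate 1 and 0.164 CPM in replicate 4. Kcnj16 passed 0.5 CPM in the Yap1WT libraries alone and so was not tested with the main filter. Without any filter, so that its level in Yap1WT did not decide whether it was tested, the log2 difference was -4.79 (edgeR adjusted p = 0.0235, with 1.47% of 19865 genes called lower). In the same setting the adjusted p was 0.0167 by limma-voom and 0.00477 by DESeq2. The call was lost without Yap1WT replicate 3 (adjusted p = 0.0982) or Yap1KO replicate 4 (adjusted p = 0.0502), and the log2 difference was -6.44 to -3.94 over the 8 fits that each left out 1 library. The filter at 4 libraries was passed by Kcnj16 through Yap1WT alone, so its call there (with 2.24% of 14087 genes called lower) is no support, and it was lost without any 1 of 5 libraries (edgeR adjusted p of up to 0.108). Kcnj16 and Kcne2, like Slc5a5, Atp4a, Atp4b and Pgc, were highest in Yap1WT replicate 3. The part of parietal or chief cells in the levels of Kcnj16 and Kcne2 was not tested.

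Of the other potassium channel genes 19 of 35 were tested, with 1 higher and 0 lower in edgeR (1 lower by DESeq2, 0 by limma-voom and 1 before adjustment at p under 0.05) and a median log2 difference of -0.09. Kcnk1, a background potassium channel gene, had 185 to 194 CPM in Yap1WT against 231 to 273 CPM in Yap1KO (log2 difference 0.43, SE 0.09, edgeR adjusted p = 0.0195). That call was lost when any of Yap1WT replicates 1, 2 and 3 and Yap1KO replicates 1, 3 and 4 was left out (adjusted p = 0.0501 to 0.0699). Kcnj15, chosen after its values were seen, is also a parietal marker and ranked the Yap1WT libraries as Slc5a5 did, with 24.8, 8.80, 40.0 and 16.4 CPM in Yap1WT against 10.4, 8.75, 13.03 and 10.1 CPM in Yap1KO (log2 difference -1.09, adjusted p = 0.135).

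The level per length was read from the deposited log2 RPKM values, which hold the 8 tested transport genes. In Yap1WT the mean log2 RPKM was 8.14 for Kcne3, 7.11 for Cftr, 5.34 for Ano1, 4.84 for Kcnq1, 4.26 for Slc5a5, 3.89 for Slc26a9, 0.70 for Slc26a6 and -1.54 for Slc26a4. Kcne3 lay above Cftr and Cftr above Ano1 in every library, whereas the ranges of Ano1 and Kcnq1, of Kcnq1 and Slc5a5, and of Slc5a5 and Slc26a9 overlapped. In Yap1KO Slc5a5 came seventh, at 1.21 ± 0.87 log2 RPKM (SD, n = 4), with a range that overlapped that of Slc26a6 (1.63 ± 0.80) and lay below that of Slc26a9 (4.73 ± 0.24). The exact permutation p of the group difference was 0.0286 for Slc5a5 and Slc26a9, 0.0571 for Kcnq1, 0.2 for Cftr and 0.143 for the remaining 4, before any correction for 8 tests.

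**Figure D3:**
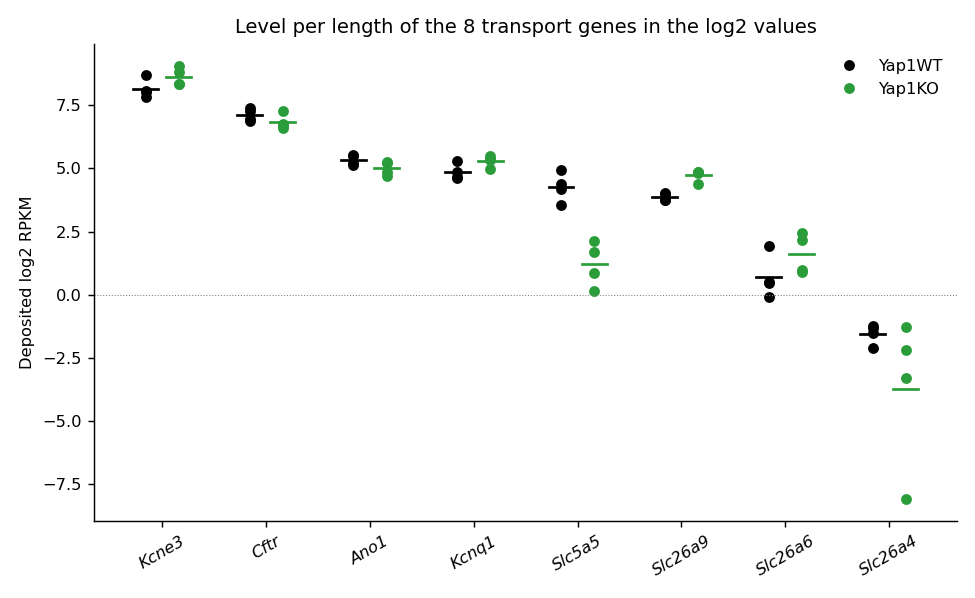
Deposited log2 RPKM (y axis) of the 8 transport genes in the log2 values (x axis, ordered by their mean in Yap1WT), with a point for each Yap1WT (black) and Yap1KO library (green) and a line at each mean. Kcne3 and Cftr head the order in both groups, while Slc5a5 moves from 4.26 in Yap1WT to 1.21 in Yap1KO.

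The genes that load chloride, buffer acid or move sodium had calls in both directions. Of 37 genes 31 were tested, with 5 higher and 4 lower and a median log2 difference of -0.05. Slc4a11, which encodes a membrane transporter of the bicarbonate transporter family, rose from 2.78 ± 1.15 to 38.05 ± 10.7 CPM (SD, n = 4 each), a log2 difference of 3.78 (SE 0.33, edgeR adjusted p = 0.000209). The membrane carbonic anhydrase gene Car12, the sodium-proton exchanger gene Slc9a3 and Slc12a8, of the cation-chloride cotransporter family, rose by 1.69, 1.57 and 1.22 on the log2 scale. The fifth was Slc12a2, named after its values were seen, which encodes the cotransporter that loads chloride into secreting cells (438 to 545 CPM in Yap1WT against 556 to 935 CPM in Yap1KO, log2 difference 0.61, adjusted p = 0.0484). Its call was kept when Yap1KO replicate 2 was left out and lost when any other library was (adjusted p = 0.0771 to 0.145), and it was also lost in 5 of the 8 other alternatives (limma-voom, RLE factors, both other filters and limma on the log2 values, adjusted p = 0.0516 to 0.0772). The cytosolic carbonic anhydrase gene Car2 fell from 1869 ± 184 to 764 ± 132 CPM (SD, n = 4 each), a log2 difference of -1.29 (SE 0.14, edgeR adjusted p = 0.000869). Scnn1a, a subunit of the epithelial sodium channel, and the carbonic anhydrase gene Car13 fell by 0.90 and 0.88 on the log2 scale. The calls of Slc4a11, Car12, Slc9a3, Slc12a8, Car2, Scnn1a and Car13 held without each of the 8 libraries. Of 21 scaffold and kinase genes that act on these transporters 18 were tested, with 0 higher in edgeR (0 also by DESeq2, by limma-voom and before adjustment at p under 0.05), 1 lower and a median log2 difference of -0.05. Ezr, whose product ties membrane proteins to actin, had 627 to 999 CPM in Yap1WT against 440 to 590 CPM in Yap1KO (log2 difference -0.66, edgeR adjusted p = 0.0418). That call held without Yap1WT replicate 2 and was lost without any other library (adjusted p = 0.064 to 0.138).

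**Figure D4:**
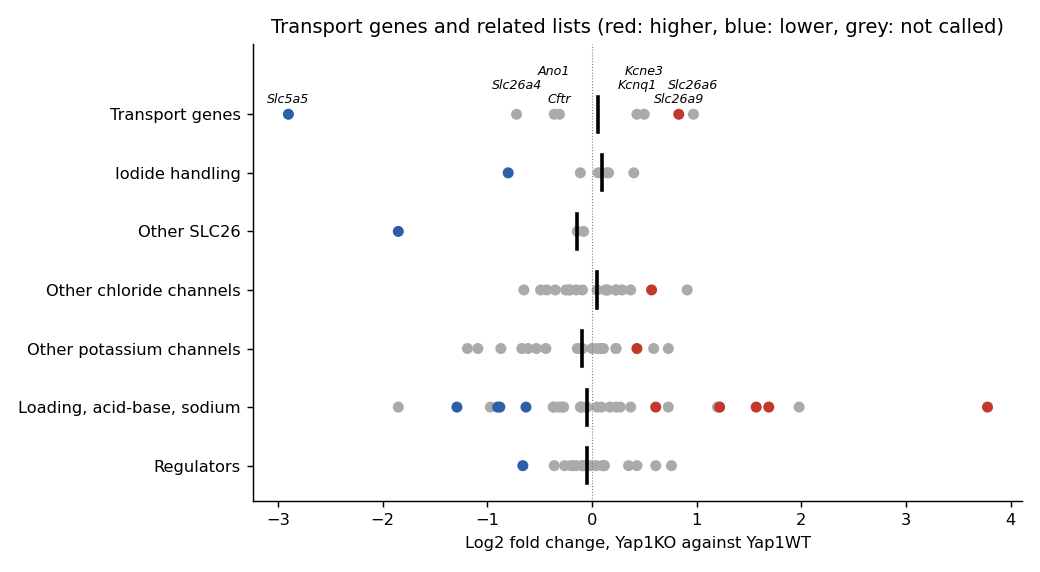
Log2 fold change, positive where Yap1KO is higher (x axis), of the 8 tested transport genes and of each tested gene of 6 related lists (y axis), with genes called higher in red, lower in blue and others in grey, and a black line at each median. Slc5a5 lies at -2.90 and Slc26a9 at 0.83, while the medians lie between -0.14 and 0.10.

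The labelled cell type was checked with 7 epithelial markers, all tested, of which Epcam was higher (938 to 1036 CPM in Yap1WT against 1524 to 1759 CPM in Yap1KO, log2 difference 0.76, edgeR adjusted p = 0.00188) and 0 were lower in edgeR (1 by DESeq2, 0 by limma-voom and 1 before adjustment at p under 0.05). Markers of endothelial cells (median log2 difference 1.24, summed level 153 to 526 CPM in Yap1WT against 449 to 930 CPM in Yap1KO) and of fibroblasts (median 1.04, 84.6 to 701 CPM and 317 to 1055 CPM) had 0 calls by edgeR among 8 tested genes each. Of the endothelial markers, 4 were higher by DESeq2, 5 by limma-voom and 7 before adjustment at p under 0.05, and of the fibroblast markers 0 in each case. Their part in the levels of the transport genes was not tested.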

How the data were processed

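EpCAM+ cells of 8 mice were profiled by bulk RNA-seq, with 4 libraries per group and groups taken from the sample titles. The authors aligned 80 bp reads to GRCm38/mm10 with Subread, and the deposited counts per gene (whole numbers, not normalized) come from featureCounts with RefSeq genes. The deposited log2 values are log2 RPKM after quantile normalization and voom by the authors. How gene length entered them is not given in the sources used here. TruSeq RNA v2 libraries do not mark strand. Deposited columns of 6 libraries that match no sample were not used. Entries without a symbol (0.552% to 0.789% of counts) and 762 pseudogenes were left out, while 73 pseudogenes present in the log2 values were kept.

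Counts were tested in R 4.3.3 with edgeR 4.0.16 (TMM, quasi-likelihood F test without covariates) on 13495 genes with over 0.5 CPM in 6 or more libraries, and p-values were adjusted over these by Benjamini-Hochberg. Total counts per library were 18229945 to 77483047, and the common biological coefficient of variation was 0.283. Standard errors (SE) were derived from log2 fold changes and their F values, and 95% intervals use the t quantile of the fit. Exact permutation tests are two-sided. P-values measure the spread between mice. On simulated counts, the edgeR test recovered 9.59% of 1.5-fold, 57.1% of 2-fold and 95.3% of 4-fold changes, with 8 false calls. Fewer genes were changed in the simulation than were called in these data, so recovery here may differ. A gene that was not called may still differ between the groups.

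The transport genes and the gene lists were chosen with earlier results of these data known. Named genes are the 10 transport genes, Yap1, up to 4 called genes per direction of each list by smallest p, and the 2 most abundant markers of each cell type. Atp4b, Aqp4, Kcnj15, Duox2, Duoxa2, Slc12a2, Slc26a2, Slc26a7, Cckbr, Foxi1, Atp6v1g3, Clcn2, Capn9, Kcnq1ot1, Gm15592 and Gm34821 are named beside these, after their values were seen. Some genes of the lists are not reported here by name.

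Alternatives were limma-voom (limma 3.58.1) with quantile normalization, which the study's methods use, DESeq2 1.42.0, RLE factors, a filter at 4 libraries and none, a block for the replicate number, another for the series to which a mouse number belongs, limma on the log2 values, and the fit without each library. For Kcne2 and Kcnj16 the filter at 4 libraries, and none, were combined with other tools and left-out libraries, chosen after seeing the data. Promoter windows are from RefSeq and exon overlaps from GENCODE M21. Tables and plots used Python 3.11.15, pandas 2.3.3 and matplotlib 3.10.9.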

Additional observations from a re-analysis of the deposited data

Results flagged for a closer look

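In 12 of 116 groups of 4 libraries, 1 library lay far from the other 3 by Dixon's test at the 95% level, which chance gives in about 1 in 20 groups. Among the transport genes these were Slc26a6 (gap 0.860 of the range), Kcne3 (0.844), Kcne2 (0.871) and Kcnj16 (0.856) in Yap1WT, each with 1 library above the rest, and Slc26a9 in Yap1KO (0.890), with 1 library below. The high library was Yap1WT replicate 2 for Slc26a6 and Kcne3, at 12.1 and 691 CPM. It was Yap1WT replicate 3 for Kcne2 and Kcnj16, at 6.30 and 11.2 CPM. The low library for Slc26a9 was Yap1KO replicate 2, at 72.0 CPM.

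Among the marker genes, Chgb (0.907) and Cdh17 (0.832) were set apart by a high Yap1WT replicate 2, Tagln (0.876) and Krt19 (0.841) by a high Yap1WT replicate 4, Tff2 (0.886) by a high Yap1KO replicate 2, Ptprc (0.934) by a low Yap1KO replicate 3 and Sox9 (0.839) by a low Yap1KO replicate 4.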

How the results depend on the processing

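The calls of Slc5a5 and Slc26a9 held in all 16 alternatives, and no called result changed sign. The count of transport genes called lower was 2 with the filter at 4 libraries, with no filter and with the replicate block (the second gene being Kcnj16 with either filter), and the count called higher was 2 with the replicate block. Over all genes, 858 were higher and 587 lower by DESeq2. Without 1 library, 241 to 481 genes were higher and 156 to 292 lower. The counts higher and lower were 241 and 156 without Yap1WT replicate 3, 287 and 205 without Yap1KO replicate 1, and 270 and 195 without Yap1KO replicate 4, and 317 genes were higher without Yap1WT replicate 1. Among the related lists, the chloride channels had 1 gene lower (Clcn2) by DESeq2 and with either block, and the potassium channels had 1 lower (Kcnj15) by DESeq2. Leaving out libraries gave 0 to 1 higher for the chloride and potassium lists, and 0 to 1 lower for the iodide, SLC26, chloride (1 without Yap1KO replicate 2), potassium (1 without Yap1WT replicate 2) and regulator lists. The cause of these shifts was not tested.

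With the replicate number as a block, 755 genes were higher and 552 lower, and Kcne3 (adjusted p = 0.0319) and Ano1 (0.0499) were called. Same-numbered libraries deviated together with correlations of 0.036, 0.347, 0.052 and 0.148, all positive, against -0.241 to 0.199 for libraries of unlike number. The labels do not say that the numbers pair the mice, so the main fit has no block. A pairing is not excluded by this, and the study describes its vehicle-treated mice as littermates of the Yap1KO mice. Mouse numbers form a lower series (replicates 1 and 2) and a higher one (3 and 4), and with the series as a block the adjusted p was 0.000363 for Slc5a5 and 0.00571 for Slc26a9. Within either series Slc5a5 was lower and Slc26a9 higher in each Yap1KO library than in each Yap1WT library. This had to be so, since the groups did not overlap over all 8 libraries, and it adds no support. The lowest counts of Slc26a4, Kcne2 and Kcnj16 were 0, 9 and 0, and not in the shallowest libraries alone, since Slc26a4 had 0 counts in Yap1KO replicate 3 (74278015 counts in all) and 21 in replicate 4 (18229945).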

Other observations

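Markers of other epithelial cells of the stomach also differed. Of 8 tested genes listed as foveolar markers, 3 were lower and 1 higher in Yap1KO (median log2 difference -0.81). DESeq2 called 5 lower, limma-voom 3, and 6 were lower before adjustment at p under 0.05, with 1 higher in each case. Only 1 of the 8, Gkn3, had a log2 difference above 0. Whether Gkn3 belongs to surface mucus cells was not tested. Of all genes tested, 2.34% were called lower and 3.53% higher. Capn9, also a listed foveolar marker, did not pass the filter and was not tested. It had 17.2 to 37.5 CPM in Yap1WT against 0 to 0.891 CPM in Yap1KO. Sult1c2, Capn8 and Anxa10 fell by 1.63, 1.76 and 0.98 on the log2 scale, and Gkn3 rose by 0.68 (edgeR adjusted p = 0.0341), a call that held without Yap1WT replicate 2 and was lost without any other library (adjusted p = 0.0551 to 0.0849) or with limma on the log2 values (adjusted p = 0.073). For cells of the mucous neck and of metaplasia, edgeR called 3 of 8 markers higher and 0 lower (median 0.56). DESeq2 called 5 higher and limma-voom 3, and 5 were higher before adjustment at p under 0.05, with 0 lower in each case. Cd44, a cell adhesion gene, rose by 1.69, Aqp5, an aquaporin gene, by 1.65 and the transcription factor gene Sox9 by 0.63 on the log2 scale. The calls of Aqp5 and Sox9 were lost without 2 and 5 of the 8 libraries (Yap1WT replicates 2 and 3 for Aqp5, adjusted p = 0.0512 to 0.0522, and Yap1WT replicates 2, 3 and 4 and Yap1KO replicates 1 and 3 for Sox9, adjusted p = 0.0503 to 0.0764).

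EdgeR called 0 of the tested markers of chief cells (5, median -0.13), enteroendocrine cells (8, median 0.53), tuft cells (8, median -0.41), intestinal cells (7, median 1.16) and leukocytes (3 of 8 listed, median -1.01). At an unadjusted p under 0.05, 1 chief, 1 intestinal and 1 leukocyte marker were lower, and 4 enteroendocrine and 1 intestinal marker were higher, and DESeq2 called 1 enteroendocrine marker higher. Tuft markers had 0 in each case, and limma-voom called 0 in these 5 lists. Leukocyte markers summed to 6.80 to 14.4 CPM in Yap1WT against 3.09 to 9.50 CPM in Yap1KO.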
